A study of Homo sapiens with 7 samples.

Results

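The genes described here are the cadherins and the unclustered protocadherins, taken as every protein-coding gene whose RefSeq symbol on the human build hg38 is CDH or PCDH followed directly by a digit. The rule found 36 genes. Of these, 35 lie on chromosomes 1 to 22 and X, among 19974 protein-coding genes there, and were analysed (23 CDH and 12 PCDH genes). PCDH11Y lies on the Y chromosome and was not analysed here, and PCDH11X shares near-identical sequence with it, so its values are uncertain. A gene was called open in a library when a peak of accessible chromatin lay within 1000 bp of either end of the gene, and peaks inside each gene body were counted.

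Cadherins are calcium-dependent adhesion proteins of the cell surface. Their extracellular repeats bind cadherins of the neighbouring cell, and the tails of the classical type I and type II members hold catenins, which link the contact to actin. In the developing nervous system the combination of classical cadherins on a neuron contributes to cell sorting, axon growth and the choice of synaptic partners. Unclustered protocadherins adhere more weakly, and several delta-2 members recruit the actin-regulating WAVE complex. They are encoded by single genes scattered through the genome, unlike the clustered protocadherins.

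Chromatin accessibility was measured by ATAC-seq, in which the transposase Tn5 inserts adapters into open DNA, in neurons grown from LUHMES cells. LUHMES is an established line from human fetal midbrain, immortalised with a v-myc transgene that tetracycline shuts off. All cells carried the genotype label WT and were differentiated for 6 days in N-2 medium with dbcAMP, GDNF and tetracycline. In 4 libraries (differentiations 6, 7, 8 and 9) the cells then received antimycin A at 25 µM, which blocks respiratory complex III, with oligomycin at 10 µM, which blocks the mitochondrial ATP synthase, for 8 hours. In 3 libraries (differentiations 6, 7 and 8) they received the DMSO vehicle, and the study asked which chromatin is open in each condition. The design text calls the differentiations separate batches of cells.

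The deposited peak lists differed in length, from 53063 to 248900 peaks after treatment and from 32828 to 159902 with vehicle, with treated 7, treated 6 and vehicle 8 the longest. Results are therefore given for equal-size lists, the 32828 peaks of highest fold enrichment in each library (the length of the vehicle 7 list), and for the deposited lists beside them. The fold is the caller's enrichment at the summit of a peak over background. The lowest fold admitted ranged from 3.72 in vehicle 7 to 9.04 in vehicle 8. Among markers of the labelled cell type, 9 of 10 genes common to neurons were open in every library, but only 4 or 5 of 10 dopaminergic genes per library. NR4A2, EN1 and PITX3 were open in all, and DDC, LMX1B, SLC18A2 and TH, which encodes the enzyme that limits dopamine synthesis, in none of the equal-size lists. Of 6 progenitor markers 4, 5, 4 and 5 were open in the treated and 2, 2 and 5 in the vehicle libraries, and of 8 glial markers 4, 5, 3 and 4 against 2, 2 and 4. Their part in the results below was not tested. In bulk samples, fewer cells with an open site and less access per cell cannot be told apart.

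Sequences upstream of 6 starts are shown because accessibility at CDH8, CDH18, PCDH19 and CDH19 marks the range seen among the members. At equal list size, CDH8 is a site called open only in vehicle libraries. CDH18 has a closed outer and an open inner start, PCDH19 is an open gene and CDH19 a closed gene. The sequences are from RefSeq on GRCh38.p14. Each is the 250 bases that precede the annotated first base of a transcript. They are read 5′ to 3′ on the minus strand, with every CG in capitals. The CDH8 windows are chr16:62036439-62036688 for the outer start and chr16:62035187-62035436 for the inner start. The CDH18 windows are chr5:20575714-20575963 and chr5:19988201-19988450. The PCDH19 window is chrX:100410274-100410523, and the CDH19 window is chr18:66604091-66604340.
CDH8 outer start: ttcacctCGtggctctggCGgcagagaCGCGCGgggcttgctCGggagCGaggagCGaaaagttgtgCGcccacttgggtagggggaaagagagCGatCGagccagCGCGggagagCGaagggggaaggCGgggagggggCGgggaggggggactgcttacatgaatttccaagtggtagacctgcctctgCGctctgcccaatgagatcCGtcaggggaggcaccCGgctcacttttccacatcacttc
CDH8 inner start: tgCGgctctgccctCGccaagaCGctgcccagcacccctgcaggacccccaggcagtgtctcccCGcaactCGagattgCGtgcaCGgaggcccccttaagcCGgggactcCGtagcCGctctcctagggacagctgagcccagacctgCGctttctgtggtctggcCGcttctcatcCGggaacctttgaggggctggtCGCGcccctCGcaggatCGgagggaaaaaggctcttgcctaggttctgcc
CDH18 outer start: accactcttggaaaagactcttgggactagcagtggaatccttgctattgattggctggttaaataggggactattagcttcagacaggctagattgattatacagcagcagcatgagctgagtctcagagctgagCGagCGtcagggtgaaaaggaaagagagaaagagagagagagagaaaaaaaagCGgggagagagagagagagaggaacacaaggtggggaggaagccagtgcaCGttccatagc
CDH18 inner start: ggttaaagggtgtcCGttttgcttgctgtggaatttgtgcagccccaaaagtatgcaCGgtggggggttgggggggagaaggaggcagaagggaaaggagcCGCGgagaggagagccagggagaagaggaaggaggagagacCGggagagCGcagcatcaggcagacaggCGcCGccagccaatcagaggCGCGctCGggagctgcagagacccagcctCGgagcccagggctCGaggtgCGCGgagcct
PCDH19: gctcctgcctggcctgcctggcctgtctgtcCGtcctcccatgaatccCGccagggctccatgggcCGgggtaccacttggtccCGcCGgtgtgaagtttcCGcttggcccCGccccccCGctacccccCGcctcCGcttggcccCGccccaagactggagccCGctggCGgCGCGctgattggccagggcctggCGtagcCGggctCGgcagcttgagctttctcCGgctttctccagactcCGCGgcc
CDH19: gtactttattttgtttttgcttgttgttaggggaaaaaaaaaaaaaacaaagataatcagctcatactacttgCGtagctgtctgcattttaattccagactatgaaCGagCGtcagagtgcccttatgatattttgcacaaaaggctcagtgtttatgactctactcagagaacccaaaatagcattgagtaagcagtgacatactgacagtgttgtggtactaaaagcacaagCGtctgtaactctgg
Both CDH8 windows are rich in CG, with 19 in the outer and 17 in the inner window. The CDH18 windows differ, with 4 in the outer and 15 in the inner. PCDH19 has 21, and CDH19 has 4 and a GC content of 38%.

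Most members had the same state at their ends in all libraries. Among the equal-size lists 15 of 35 members (42.9%) were open in all 7 libraries, against 46.5% of all genes. A further 10 were open in 1 to 6 libraries and 10 in none, against 29.6% of all genes open in none. All 5 delta-2 protocadherins (PCDH8, PCDH10, PCDH17, PCDH18 and PCDH19) were open in every library, as were 3 of 4 delta-1 protocadherins (PCDH1, PCDH7 and PCDH9), the exception being PCDH11X. Of the 13 type II classical cadherins, 4 were open in all libraries (CDH6, CDH7, CDH12 and CDH24), 5 in some (CDH8, CDH10, CDH11, CDH20 and CDH22) and 4 in none (CDH5, CDH9, CDH18 and CDH19). Of the 5 type I cadherins, only CDH2 was open in all. CDH23 and PCDH15, whose proteins form the tip links of hair cells, were open in all as well.

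**Figure D1:**
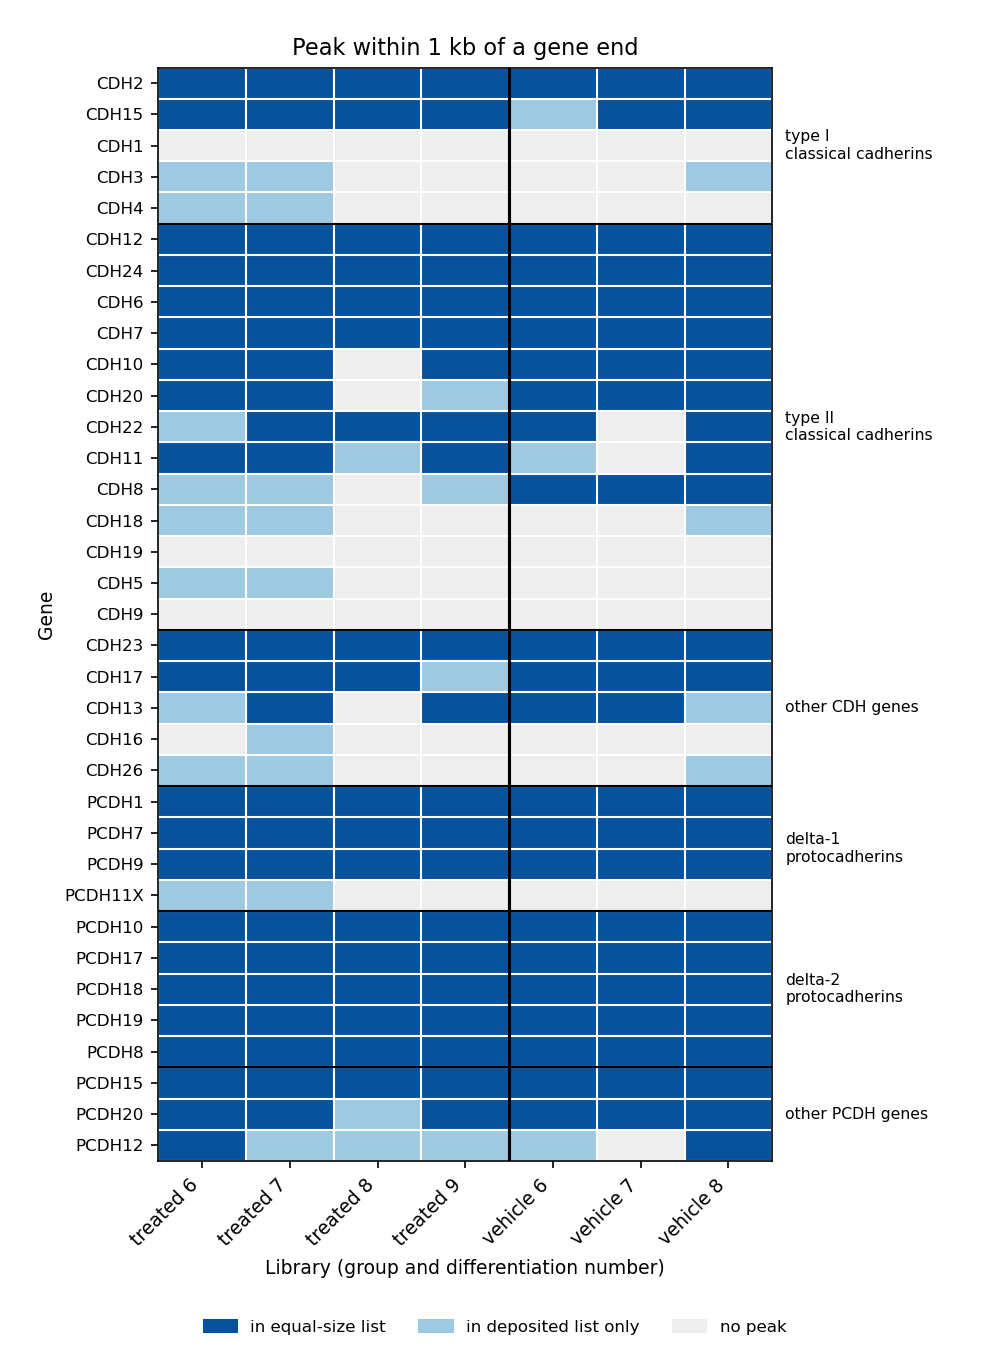
Rows are the 35 genes by subfamily, columns the 7 libraries, and dark tiles mark an end peak (within 1 kb) in the equal-size list, pale tiles one in the deposited list only, and grey no peak. The 5 delta-2 protocadherins are dark in every column, and CDH8 is dark in the 3 vehicle columns and in none of the 4 treated columns.

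Among the genes open throughout, CDH2 encodes N-cadherin, the main classical cadherin of neural tissue. The fold of its strongest end peak was 30.5, 29.6, 15.4 and 16.4 in treated libraries 6, 7, 8 and 9, and 15.4, 13.7 and 28.4 in vehicle libraries 6, 7 and 8. The 3 libraries with the longest lists (treated 6, treated 7 and vehicle 8) are the 3 highest, and the groups overlap. By position in its own list, the CDH2 peak stood in the top 0.583% to 2.10% of the treated and 2.67% to 5.27% of the vehicle lists. These ranges do not overlap, but ranks from lists of different length cannot be read as a change. In lists of similar length the peak stood at 2.08% in treated 8, 2.10% in treated 9 and 5.27% in vehicle 6. The difference in rank was not tested. Other genes of this kind stood lower in some lists, down to 38.4% for PCDH19, 26.3% for PCDH17 and 13.0% for PCDH9.

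PCDH9, a delta-1 protocadherin of brain, gave folds of 42.1, 25.7, 15.4 and 16.01 in the treated and 17.4, 9.93 and 43.1 in the vehicle libraries. PCDH10, which binds the WAVE complex, gave 40.9, 25.9, 12.1 and 14.4 against 20.1, 15.5 and 45.6. PCDH17, a protocadherin of presynaptic and axonal contacts, gave 32.1, 21.4, 11.6 and 9.61 against 16.8, 7.45 and 34.9. In each of these 3 genes the groups overlapped, with vehicle 8 above every treated library. PCDH19, an X-linked gene whose mutation causes epilepsy, gave 19.5, 17.4, 8.81 and 10.4 against 8.71, 6.21 and 19.7, and again the groups overlapped. The 178 bp between PCDH10 and the lncRNA PCDH10-DT mean that its end peak cannot be assigned to either gene alone.

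The 10 members with closed ends in every equal-size list included genes of other tissues and of brain. CDH1, the E-cadherin of epithelia, and CDH19, known from the Schwann cell lineage, had no end peak and no body peak in the equal-size lists, and neither had an end peak in any deposited list. The same was true at the ends of CDH9, a synaptic type II cadherin. CDH5, the VE-cadherin of blood vessels, was open in no equal-size list and only in treated 6 and 7 of the deposited lists, with folds of 5.98 and 4.15. CDH4, known as R-cadherin from the retina, showed the same pattern with 3.77 and 4.29, and CDH3, the P-cadherin of epithelia, gave 5.35, 5.004 and 4.52 in treated 6, treated 7 and vehicle 8. CDH26 appeared in the same 3 lists (4.09, 2.29 and 4.11), PCDH11X in treated 6 and 7 (5.03 and 2.72) and CDH16, the cadherin of kidney, in treated 7 alone (3.29). Treated 6, treated 7 and vehicle 8 have the 3 longest lists, and the part of list length in these calls was not tested. Epithelial markers were open in 0 or 1 of 7 genes per library and endothelial markers in 1 or 2 of 7 in the equal-size lists.

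Between the groups, the number of open members differed by less than the spread of the treated libraries. At equal list size 22, 23, 18 and 21 members were open in the treated and 22, 22 and 24 in the vehicle libraries. The means were 21.0 ± 2.16 (SD, n = 4) and 22.7 ± 1.15 (SD, n = 3), and treated 8 was the lowest. Over all genes the treated libraries were higher, with 62.4% ± 1.92 (SD, n = 4) open against 56.1% ± 2.57 (SD, n = 3). In the deposited lists 31, 32, 21 and 25 members were open in the treated and 25, 22 and 28 in the vehicle libraries. The groups overlapped, and the 3 longest lists held the 3 highest counts. There, 18 members were open in all 7 libraries, against 49.8% of all genes, and 3 in none (CDH1, CDH9 and CDH19), against 16% of all genes.

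**Figure D2:**
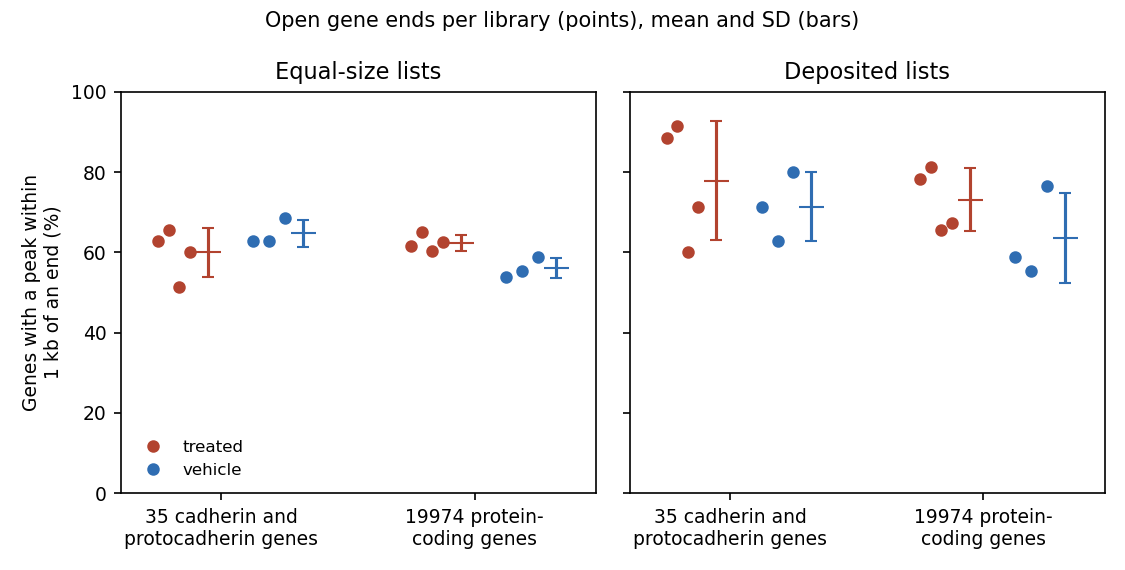
Points are the percentage of genes with a peak within 1 kb of an end in each library, for the 35 members and for all 19974 protein-coding genes, in the equal-size (left) and deposited (right) lists, and bars are the mean and SD of 4 treated and 3 vehicle libraries. In the equal-size lists the members lie between 51.4% and 68.6% and the groups overlap, whereas over all genes the treated libraries lie above the vehicle libraries.

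Single members differed between groups in both directions. With equal lists 7 members were open in a larger share of vehicle than of treated libraries (CDH8, CDH10, CDH13, CDH17, CDH20, PCDH12 and PCDH20), against 4.56% of all genes. The reverse held for 3 members (CDH11, CDH15 and CDH22), against 19.3% of all genes. The median difference of shares was 0 percentage points for the members and for all genes, and the means were -4.76 and 6.31. The first of these counts rested on 1 library: without treated 8 it was 3 and the second count 2. No member was open in 4 treated and 0 vehicle libraries, a state held by 0.576% of all genes. With lists ended at equal enrichment over background the larger vehicle share held for 9 members, against 11.4% of all genes, and the larger treated share for 2, against 15.1%, and 0.025% of all genes were open in 4 treated and 0 vehicle libraries. In the deposited lists 10 members were open in a larger share of treated libraries, against 29.4% of all genes, and 4 (CDH8, CDH10, CDH13 and CDH20) in a larger share of vehicle libraries, against 4.82%. No member there was open in all libraries of one group and none of the other, where 0.11% of all genes were open in 4 treated and 0 vehicle libraries and 0% in the reverse. By Fisher's exact test with Benjamini-Hochberg adjustment over the 4771 genes open in 1 to 6 libraries, 0 genes passed, with 118 (2.47%) at an unadjusted p below 0.05. In the deposited lists 0 of 6842 genes passed, with 22 (0.322%) at an unadjusted p below 0.05 and no member among them. With 4 against 3 libraries the smallest p that test can give is 0.0286.

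CDH8, a type II cadherin of developing cortical and striatal circuits, was the only member open in all 3 vehicle libraries and no treated library, a state it shared with 0.015% of all genes (3 of 19974). The gene lies at chr16:61647250-62036438 on the minus strand, and its outer and inner starts are 1252 bp apart. In vehicle 6 and 8 a single peak spans both starts, whereas the 3 peaks of vehicle 7 do not reach the outer start. The strongest end peak had a fold of 7.86, 5.86 and 3.60 in treated 6, 7 and 9, no peak was present in treated 8, and the folds were 7.37, 6.83 and 9.04 in vehicle 6, 7 and 8. The folds of the groups overlap, and whether a peak entered the equal-size list turned on the limit of its own library. The exact p was 0.0286 (two-sided Fisher), with an adjusted p of 0.763.

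Scaled to the constant background recovered for each library, the CDH8 peak stood 11.01, 6.67 and 5.34 times above background in treated 6, 7 and 9, and 20.3, 16.4 and 14.6 times in vehicle 6, 7 and 8. Each vehicle value lies above each treated value. Within a library, that enrichment was 0.316, 0.325 and 0.320 of the median over the 15 members open in every library in treated 6, 7 and 9, and 0.667, 0.769 and 0.375 in vehicle 6, 7 and 8. The vehicle 8 value is near the treated ones. The peaks rest on few fragments, with summit pileups of 24, 40 and 8 in treated 6, 7 and 9 and 10, 10 and 21 in vehicle 6, 7 and 8.

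The CDH8 call depended on where the lists were ended and on the rule of position. The peak of vehicle 8 stood exactly at the limit of its equal-size list, a fold of 9.04. With peaks tied at the limit left out, CDH8 was open in 0 of 4 treated and 2 of 3 vehicle libraries, and at equal enrichment over background in 1 and 3. With lists of 16414 peaks it was open in 0 and 2. The share of treated minus vehicle libraries was -33.3 percentage points when the summit had to lie within the window, and -25 at the second shortest list length with vehicle 7 left out. In the deposited lists it was open in 3 of 4 treated and 3 of 3 vehicle libraries. Read through the sequences printed above, the inner window held a peak in 0 treated and 3 vehicle libraries and the outer window in 0 and 2, with 3 and 3, and 2 and 2, in the deposited lists. A lncRNA, LOC124903777, lies 152 bp from the outer start.

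**Figure D3:**
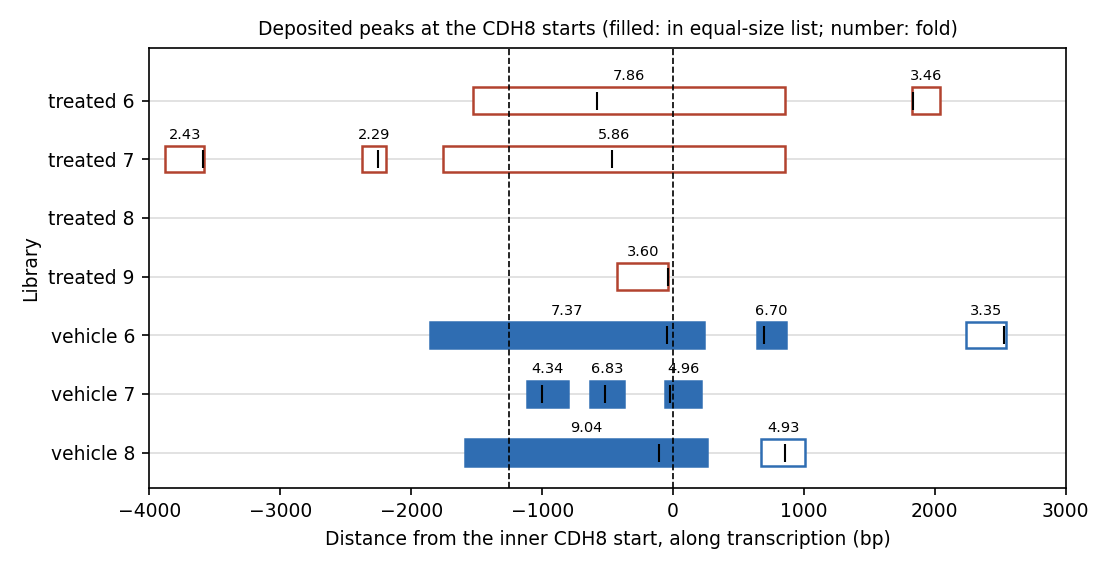
Bars are the deposited peaks around the CDH8 starts in each library, by distance in bp from the inner start along transcription, with the fold above, a tick at the summit and dashed lines at the 2 starts. Filled bars, in the equal-size list, occur in the 3 vehicle libraries, and open bars in treated 6, 7 and 9 (folds of 7.86, 5.86 and 3.60) lie at the same site.

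The other 6 members with a larger vehicle share were each open in at least 1 treated library. CDH10, a type II cadherin of brain, lacked an end peak only in treated 8. Its folds were 22.3, 15.01 and 7.60 in treated 6, 7 and 9, and 12.1, 13.7 and 25.1 in the vehicle libraries. CDH20 was absent from treated 8 and below the limit in treated 9, with a fold of 3.60. CDH13, the T-cadherin held in the membrane by a lipid anchor, gave folds of 6.92, 7.58 and 5.60 in treated 6, 7 and 9 and 6.70, 6.83 and 8.22 in vehicle 6, 7 and 8, and had no peak in treated 8. It passed the limit in treated 7 and 9 and in vehicle 6 and 7, so its groups overlapped. CDH17, the liver-intestine cadherin, gave 16.7, 9.86, 5.51 and 4.40 against 4.69, 4.96 and 12.7, and PCDH20 gave 28.9, 16.7, 3.85 and 6.80 against 4.69, 4.96 and 40.3. Both were open in every deposited list. PCDH12, a protocadherin of endothelium, was in the lists of treated 6 and vehicle 8 at its upper end. That peak lies within the body of RNF14, so it cannot be assigned to either gene alone. For PCDH12, CDH17, PCDH20 and CDH15, as for CDH8, a peak stood exactly at the limit in at least 1 library.

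CDH11, a cadherin of mesenchyme that neurons also express, was open in treated 6, 7 and 9 and in vehicle 8. Its folds were 11.95, 11.3, 3.85 and 8.40 in the treated and 3.35 and 10.7 in vehicle 6 and 8, with none in vehicle 7. The call turned with the window: within 2500 bp of an end CDH11 was open in a larger share of vehicle libraries, and the merged region at its upper end (chr16:65119805-65124017) held a peak in all 7. Some mesenchymal markers also favoured treated libraries, with 3, 3, 2 and 3 of 6 genes open in the treated and 1, 0 and 1 in the vehicle libraries. These were PDGFRB (4 and 0), COL1A1 (3 and 0) and PRRX1 (4 and 2), while COL1A2, LUM and DCN were open in no equal-size list. A larger treated share held for 19.3% of all genes. The part of these markers in the CDH11 result was not tested. CDH22, a type II cadherin of brain, was open in treated 7, 8 and 9 and in vehicle 6 and 8, with folds of 7.23, 6.86, 6.06 and 5.20 against 6.70 and 13.1 in vehicle 6 and 8. CDH15, the M-cadherin of muscle, was open in all 4 treated libraries and in vehicle 7 and 8, at its lower end, with folds of 12.9, 10.01, 6.06 and 4.40 against 6.21 and 9.45, and its peak of 4.02 in vehicle 6 fell below the limit.

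Partners of these proteins were mostly open in both groups. Of 16 catenins and junction partners, 10 were open in all 7 libraries, 4 in a larger share of treated libraries (CTNNA1, AFDN, NECTIN1 and NECTIN2) and 0 in a larger share of vehicle libraries. CTNNB1 and CTNND1, the catenins that bind classical cadherins directly, were open in all. Of 9 WAVE complex partners, 7 were open in all, and CYFIP1 was the 1 that favoured treated libraries. Among 24 other cadherin superfamily genes, 13 were open in all, 5 favoured treated and 1 (DSC1) favoured vehicle libraries. Over all genes 46.5% were open in all 7 libraries, 19.3% in a larger share of treated and 4.56% in a larger share of vehicle libraries. None of these lists held a gene open in all libraries of one group and none of the other. Of all genes, 0.576% were open in 4 treated and 0 vehicle libraries and 0.015% in the reverse. Whether the lists differ from these shares was not tested.

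Where the strand was known, the open end of a member in the equal-size lists was its start. RefSeq start windows (250 bases before to 50 after the first base) matched 22 of the 35 members, giving 35 windows. In those lists 12 to 16 of these 22 genes were open at the start, and 0 at the opposite end, in each of the 7 libraries. Over all 15813 genes with a known strand, 54.8% to 64.9% were open at the start and 5.59% to 10.5% at the opposite end. Whether the members differ from these shares was not tested. Summits lay close to the start in several genes, with a median distance of -23 bp for CDH10, -26 bp for PCDH8 and -7 bp for PCDH18 (negative values lie upstream). Others lay further off, with medians of -654 bp for CDH2, 684 bp for CDH20 and -1738 bp for PCDH17. The PCDH17 distance is to the start in its RefSeq window, which lies inside the gene. Except in treated 9, the PCDH17 summits lay at chr13:57629952-57630049, beside the lower end of the gene at 57630108. The PCDH1 peak, at the upper end of the gene, lay at a median of -9640 bp from the start in its RefSeq window, and that window had no peak in an equal-size list. Members without a window were CDH1, CDH3, CDH5, CDH6, CDH11, CDH13, CDH15, CDH16, CDH17, CDH22, CDH24, PCDH10 and PCDH20.

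CDH18, a type II cadherin of the central nervous system, was open away from its gene ends. Neither end had a peak in any equal-size list, but the region chr5:19987255-19989137, over the inner start printed above, held a peak in all 7 libraries. The outer start, at the gene end, had a deposited peak in 2 treated and 1 vehicle library. CDH18 would thus count as closed by its ends and as open by its inner start in both groups.

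GC content was higher in open than in closed start windows, and the ranges overlapped. The 10 member windows with a peak in all 7 libraries had a median GC content of 65.2% and a median of 20 CG, and the 15 with a peak in none had 47.3% and 5. Over all 22132 windows the values were 66.3% and 27 for those open in all libraries and 51.7% and 5 for those open in none. The outer CDH8 window, open in 2 libraries, and the inner, open in 3, lie in the range of the windows open throughout.

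**Figure D4:**
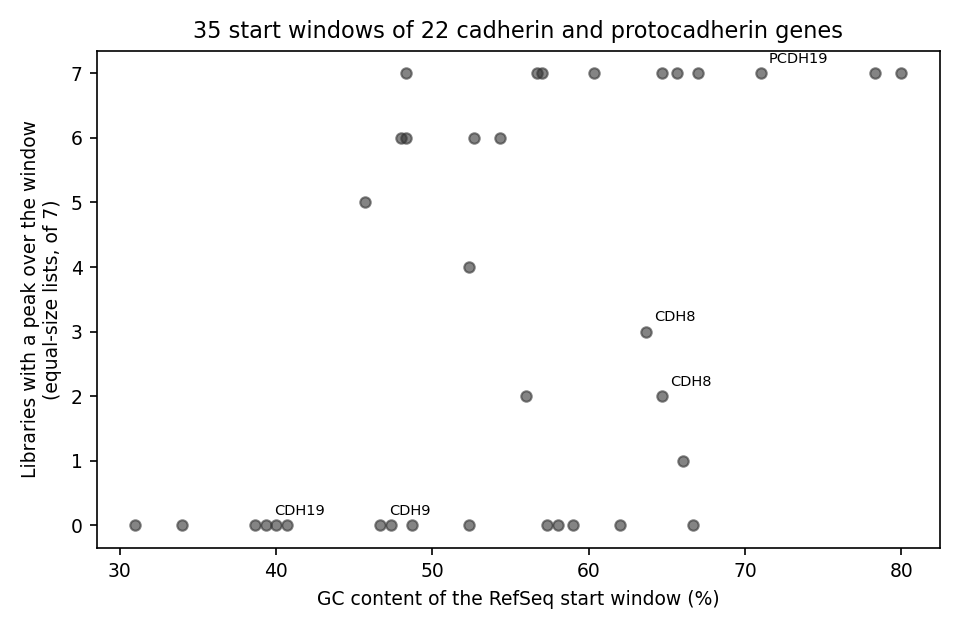
Each point is 1 of the 35 RefSeq start windows of 22 members, by GC content (%) and by the number of the 7 libraries with a peak over it in the equal-size lists. Windows with a peak in all 7 libraries reach 80.0% GC, those with none reach down to 31.0%, and both CDH8 windows sit at 2 and 3 libraries.

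The letters CCAAT, searched on both strands, occurred in 21 of 35 member windows (60%) and in 34.6% of all windows. By accessibility, they occurred in 9 of 10 member windows open in all libraries, 7 of 10 open in some and 5 of 15 open in none. The same split was not counted over all windows, so it cannot be called particular to the members. Some of the 35 windows also belong to the same gene. The GC box GGGCGG occurred in 10 member windows (28.6%), against 56.3% of all windows. CANNTG, the E-box letters, occurred in 65.7% and 65.1%, and CACCTG, which is an E-box of the kind bound by Snail proteins, in 11.4% and 19.98%. TGACGTCA and TGATGCAA, letters of the CRE and of an ATF4-type site, occurred in no member window, against 2.26% and 0.678% of all windows. TATAAA occurred in 14.3% and 9.46%, and TGANTCA in 11.4% and 6.15%.

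Members are long genes, and at equal list size their bodies held fewer peaks per length than genes in general. Their median length was 134.8 kb, against 24.2 kb over all genes, and 4 exceed 1000 kb. The bodies then held 77, 73, 79 and 78 peaks in the treated and 101, 77 and 74 in the vehicle libraries. Per Mb of gene body this was 6.88 ± 0.236 (SD, n = 4) and 7.53 ± 1.33 (SD, n = 3), and vehicle 6 stood above the rest. Over all genes the values were 17.5 and 16.8 per Mb. Long genes as a class were lower, and the median over the 3351 genes longer than 100 kb was 8.93 to 9.56 peaks per Mb in the 4 treated libraries. The difference of -0.65 per Mb was smaller than the SD of the vehicle libraries. It was 0.112 without vehicle 6, and -5.48 with lists ended at equal enrichment over background. Those lists are cut by enrichment and not by number of peaks. Peaks per Mb there also depend on list length, so -5.48 cannot be set against -0.65. As deposited, the lists gave the member bodies 861, 1243, 152 and 160 peaks in the treated and 179, 77 and 677 in the vehicle libraries. Per Mb these were 77.2 and 111 in treated 6 and 7, above all genes at 74.4 and 95.1, and the other 5 libraries were below all genes.

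By gene, the mean number of body peaks was higher in vehicle for 18 members, against 28.3% of genes with a body peak, and higher in treated for 12, against 42.8%. The means were equal for 2 members, and 3 (CDH1, CDH19 and CDH26) had no body peak. An exact permutation test of each gene over the 35 assignments of labels, with Benjamini-Hochberg adjustment over 15635 genes, called 0 genes, with 272 (1.74%) at an unadjusted p below 0.05. Only CDH8 had every vehicle library above every treated library, against 0.48% of genes with a body peak, and no member had the reverse, against 1.46%. CDH8 had 0, 0, 0 and 0 against 3, 4 and 1 peaks, including those at its start (exact permutation p = 0.0286, adjusted p = 1). The 1 peak of vehicle 8 is that at the start, at the limit of its list. The separation therefore rests on the end call and is not a second observation. PCDH15 had 5, 4, 3 and 4 against 11, 9 and 5, and the groups touch at 5 peaks (exact permutation p = 0.0571, adjusted p = 1).

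CDH23 had 9, 4, 11 and 5 peaks in its body in the treated and 3, 4 and 4 in the vehicle libraries, and CDH4 had 4, 3, 11 and 6 against 3, 5 and 3. In both genes treated 8 was the highest library and the groups overlapped. CDH12, a type II cadherin of brain, had 4, 5, 3 and 5 against 6, 5 and 6, which also overlap.

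CDH13 had the most body peaks of any member, and its number was high where lists were long. At equal list size it held 7, 8, 10 and 15 peaks in the treated and 19, 12 and 6 in the vehicle libraries, which overlap. In the deposited lists the same body held 285, 460, 28 and 39 against 45, 12 and 186, and the 3 longest lists were the 3 highest. This was 243 and 392 peaks per Mb in treated 6 and 7, where all genes had 74.4 and 95.1. In treated 8 and vehicle 7 it lay below all genes, with 23.9 against 27.5 and 10.2 against 16.9 per Mb. By number of peaks CDH13 ranked 2, 3, 24 and 11 among all genes in the treated and 11, 55 and 5 in the vehicle libraries. That number also depends on gene length. By peaks per Mb among the 3351 genes longer than 100 kb, CDH13 ranked 73, 43, 992 and 616 in the treated and 401, 1399 and 146 in the vehicle libraries. The median fold of its deposited peaks was 3.77 in treated 6 and 2.86 in treated 7, against 4.40 and 3.00 over the whole lists. Peaks were also dense in the adjoining 1 Mb below the gene, with 286 and 364 in those 2 libraries.

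**Figure D5:**
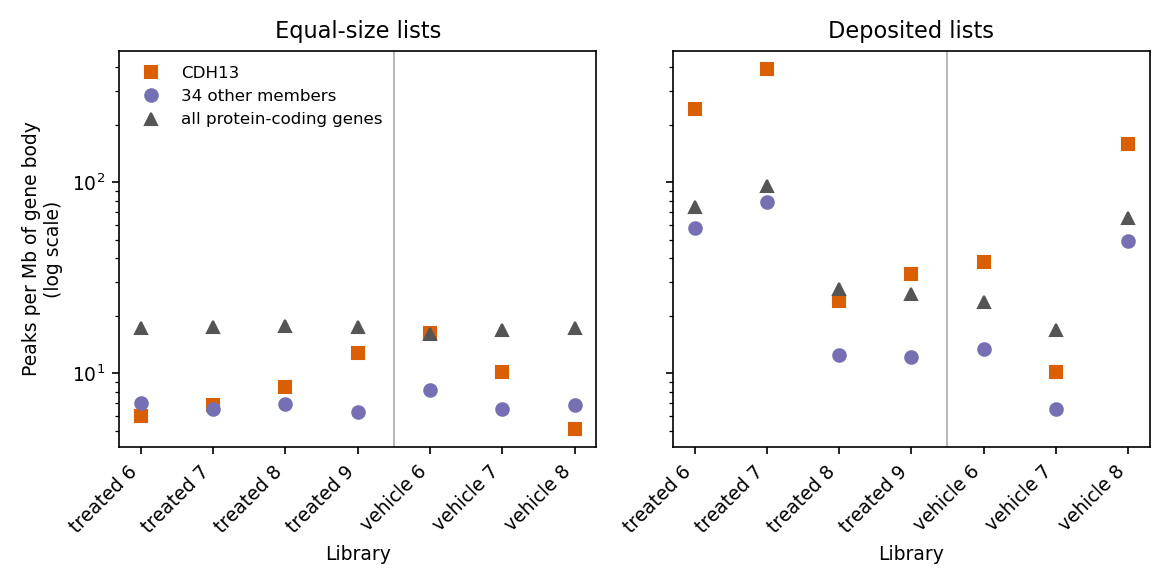
Symbols are the number of peaks per Mb of gene body (log scale) in each of the 7 libraries, for CDH13, for the 34 other members and for all protein-coding genes, in the equal-size (left) and deposited (right) lists. In the deposited lists CDH13 reaches 392 per Mb in treated 7, above all genes at 95.1, while in the equal-size lists the members other than CDH13 stay between 6.31 and 8.21 per Mb.

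Regions away from the ends were mostly found in 1 library. Merging the equal-size lists gave 198 regions in member genes, of which 25 (12.6%) held a peak in all 7 libraries and 108 (54.5%) in 1. Over all 62507 merged regions the shares were 22.9% and 38%. Of 27 regions at a member end, 17 were present in all libraries. Of 171 away from the ends, 8 were. The region at the CDH8 starts was the 1 member region present in 0 treated and 3 vehicle libraries, against 0.37% of all regions, and no member region was present in 4 treated and 0 vehicle libraries, against 0.781%. Of the 8, 2 lie in CDH18 and the others lie in PCDH1, PCDH15 (chr10:55601834-55602825), PCDH9 (chr13:67147345-67148502), CDH13 (chr16:83680057-83683057), CDH22 (chr20:46215792-46217185) and CDH4 (chr20:61628193-61630287). CDH4 thus held an internal region in every library although neither of its ends was open in an equal-size list.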

How the data were processed

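ATAC-seq peak lists of 4 treated and 3 vehicle libraries were used as deposited. Per the submitters' processing notes, reads were handled with FastQC, Bowtie2 and Picard on hg38. Each library has its own MACS2 peak list, per the file headers. Neither the Tn5 shift nor the peak caller options were given in the sources used here, and the options would change peak width and number. The deposited fold is the ratio of signal to background at the summit, and the deposited −log10 p-value and −log10 q-value come from the authors' peak caller. The deposited integer score of each peak follows its q-value and was not used. Read totals were not given. The folds lie on a grid that gives whole pileups (tolerance 0.02) for 99.9988% to 100% of peaks, from which 1 background per library was recovered.

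Only chromosomes 1 to 22 and X entered, which left out 29 to 54 peaks per library. Equal-size lists held the 32828 peaks of highest fold, ties ordered by −log10 p, width and position. Genes came from RefSeq on GRCh38.p14, 19974 in all, and an overlap of 1 bp counted. Each gene was tested with Fisher's exact test or an exact permutation test over 35 label assignments, two-sided, adjusted by Benjamini-Hochberg over all genes tested. Genes named with values by library were CDH8, a panel of 10 members, any member with an end peak in at least 3 treated and 0 vehicle or 0 treated and at least 2 vehicle libraries, and the 5 with most body peaks. Other members were given by counts and ranges, and those named beyond the rule were chosen after their values were seen. The members, gene lists and tests were chosen with earlier results of these data known. All replicates are differentiations of 1 line, so p-values measure the spread between them. In simulated data for the comparison of open ends, 200 of 19974 genes were set open in every treated and no vehicle library. All 200 reached an unadjusted p below 0.05. That setting fixes this outcome, so it checks the code and does not measure power. Overlaps equalled those of bedtools 2.31.1. Python 3.11.15, numpy 2.4.6, pandas 2.3.3, scipy 1.17.1 and matplotlib 3.10.9 were used. Window, list length, tie, enrichment, start and leave-one-out alternatives were run, the tie, equal-enrichment and start-window ones added after seeing the data.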

Additional observations from a re-analysis of the deposited data

Results flagged for a closer look

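Of 60 values examined in the groups of 4 treated libraries, 3 had 1 library flagged as apart from the others. The limit used flags about 1 in 20 groups of continuous values by chance, a rate that does not hold for small counts. Treated 8 had 28 members with a body peak in the deposited lists, where the other treated libraries had 33 or 34. CDH2 had 2 body peaks in treated 7 in the equal-size lists, where the other treated libraries had 4. PCDH19 had 2 body peaks in treated 7, where the others had 1. For CDH2 and PCDH19 the other 3 treated libraries are tied, and the rule flags such a tie whatever the size of the difference.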

How the results depend on the processing

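The main difference in open members (equal-size lists, treated minus vehicle) was -1.67. It became 0.333 with a window of 250 bp and 0.583 with a list length of 16414 peaks, and ranged from -2.33 to -0.667 when 1 library was left out. The count of members open in all vehicle and no treated libraries fell from 1 to 0 with summits only, with a list length of 16414 peaks, at the second shortest list length, with ties left out and at equal enrichment over background. The count with a larger share of treated libraries (3) was 5 within 2500 bp, 8 within 250 bp, 5 at 16414 peaks and 5 with ties left out. It was 0 at the start only (22 genes with strand). All members of the main count (CDH11, CDH15 and CDH22) lack a known strand, so that setting leaves them out and its 0 is no result about them. The count with a larger share of vehicle libraries (7) was 4 at the start only and 4 at the second shortest length, and ranged from 3 to 7 when 1 library was left out. Of its members, CDH13, CDH17 and PCDH20 have no known strand and cannot enter at the start only. Body peaks differed by -0.221 per 1000 peaks and -0.65 per Mb in the equal-size lists. When 1 library was left out these ranged from -0.373 to 0.0381 and from -1.10 to 0.112. At equal enrichment they were -0.577 and -5.48, but those lists are not of equal size, and the value per Mb also depends on list length. CDH11 reversed to -25 percentage points within 2500 bp (main 41.7) and CDH13 to 16.7 within 250 bp (main -16.7). The cause of these shifts was not tested, except that fewer libraries enter where 1 is left out and fewer members enter at the start only. In the replicate block over differentiations 6, 7 and 8 the difference in open members was -1.67, and the larger-share counts were 2 and 5. Whether a shared differentiation number pairs a treated with a vehicle library could not be decided, and the tests used no pairing. Same-number correlations were -0.0563, -0.00969 and -0.0719 for open ends. The highest correlation, 0.214, was between treated 6 and vehicle 8, which both have long lists. Such correlations therefore cannot show that the samples are unpaired. A difference counted as moved when it shifted by at least the pooled SD within groups. A count moved when it passed a fixed ratio to the main count or when 1 of the counts was 0. By that rule 17 summary values moved and 162 did not. The body peak differences per 1000 peaks and per Mb without vehicle 6 changed sign within that SD, so they count among the 162. List length limits every count of open ends, and the number of sequenced reads is unknown. Peaks just below a list limit cannot be called absent.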
